A study of Mus musculus with 18 samples.

Results

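Loss of Hif1a in natural killer (NK) cells kept at low oxygen was examined in 6 of the 18 libraries of the series, 3 labelled Hif1a KO and 3 labelled Hif1a flox, over the 16743 genes with enough counts to test. All cells came from mouse spleen and were cultured for 7 days at 1% O2 with 1700 U/ml of interleukin 2 (IL-2), a growth factor for NK cells. Hif1a flox cells were Hif1a fl/fl, with both alleles flanked by loxP sites and no Cre, and Hif1a KO cells were Ncr1 iCre, Hif1a fl/fl. Their Cre is driven by Ncr1, a gene of NK cells and some other innate lymphoid cells, so the KO and flox cells differ in Cre as well as in Hif1a. A pair of further lines gave comparison values: Ahr fl/f against Ahr fl/fl with Ncr1 iCre (the Ahr line), and Hif1a fl/fl with Ahr fl/f against Hif1a fl/fl with both Ahr fl/fl and Ncr1 iCre (the Hif1a Ahr line), again with 3 libraries in each group. Replicates are labelled biological, and the age of the mice is not given in the sources used here. Levels are CPM, each gene's share of its library's counts on a common scale, and the 3 values of a group are always given in the order of replicates 1, 2 and 3.

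Hif1a encodes the oxygen-regulated subunit of hypoxia-inducible factor 1 (HIF-1). When oxygen is low this subunit escapes degradation, pairs with Arnt and binds DNA at sites built on a short core sequence, and it is best known for raising glucose transport and glycolysis. NK cells are lymphocytes that kill infected or transformed cells with perforin and granzymes and that release cytokines, and IL-2 drives both their growth and their killing. Genes of glycolysis and well-known HIF targets were set aside here as 2 lists, and the text turns to metabolic, NK identity, signalling and surface genes outside them.

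Library totals in the Hif1a line were close, from 54880547 to 55732708 counts. The gene-level Hif1a value stood at 64.9, 59.5 and 56.5 CPM in the flox libraries and 182, 147 and 211 CPM in the KO libraries, higher in every KO library (log2 change 1.58 ± 0.11, edgeR adjusted p = 6.5e-09). Because a gene-level count cannot separate exons, it does not check the deletion. Of the 2 lists set aside, 19 of 24 tested glycolysis genes and 43 of 48 tested HIF targets were called lower. Ncr1, whose promoter drives the Cre, stood at 116, 131 and 116 CPM in the flox libraries and 209, 219 and 258 CPM in the KO libraries (log2 change 0.92 ± 0.10), and it also rose in the KO cells of the Hif1a Ahr line (log2 change 1.06) and of the Ahr line (0.97).

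Genes that define NK cells were abundant in both groups, with a summed level of 12 markers from 29957 to 35251 CPM in flox and from 22090 to 24627 CPM in KO libraries. The markers did not move together, with 4 of the 12 called higher and 6 lower. In the Hif1a Ahr line 4 were called higher and 1 lower. Markers of other cells were present at lower levels. Sums of 7 stroma and endothelium genes ran from 298 to 327 CPM with flox and from 220 to 249 CPM with KO, with Col3a1 and Cdh5 at 0. Those of 9 B cell genes overlapped, from 71.2 to 86.9 CPM with flox and from 75.9 to 104 CPM with KO. The sum of 15 T cell genes ran from 640 to 711 CPM with flox and from 518 to 552 CPM with KO. Of the 15, 4 were called lower, with Cd3g (-3.12) and Cd3d (-2.24) falling and Cd3e (-0.27) not passing the test. Cd3g and Cd3d were also called lower in the Hif1a Ahr line (-3.29 and -2.30) and in the Ahr line (-1.50 and -1.06). Sums of 9 neutrophil genes ran from 1.75 to 8.88 CPM with flox and from 0.0853 to 0.138 CPM with KO. Those of 6 mast cell and basophil genes ran from 129 to 182 and from 10.8 to 44.1 CPM, mostly Mcpt8, with Tpsb2 at 0 in all 6 libraries. For 8 dendritic cell genes the sums were 43 to 50.8 and 13.4 to 14.3 CPM, mostly H2-Ab1, with Cd209a at 0, and for 10 macrophage and monocyte genes 34.3 to 43 and 51.8 to 55.7 CPM, mostly Cd68 (0.75), with C1qc at 0. Of the 4 macrophage and monocyte genes tested Cd68 was called higher and the other 3 lower. The part of these cells in the results was not tested, and in bulk samples fewer cells of a type and less RNA per cell cannot be told apart.

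Over all genes, 5920 (35.4%) were called different between Hif1a KO and Hif1a flox at an adjusted p under 0.05, 2948 higher (17.6%) and 2972 lower (17.8%). Scaling by library totals alone, without the TMM factors, moved the median of all genes from -0.01 to 0.09 on the log2 scale and the split to 4117 higher and 2156 lower (65.6% of calls higher, against 49.8%), so that small rises and falls depend on the scaling. Changes of at least 2-fold leaned down, with 519 genes (3.1%) higher and 1094 (6.53%) lower. Every KO value lay above every flox value for 4148 genes (24.8%) and below every flox value for 4201 (25.1%). Such separation, given below for named genes, was thus common among all genes. The share called depended on level, from 18.6% of genes under 1 CPM to 43.9% of genes over 100 CPM. Over the 44 lists combined, outside those set aside, 327 of 1247 tested genes were called higher and 328 lower (52.5%). The shares were 50% of 424 metabolic genes, 51.1% of 182 NK identity genes, 53.9% of 393 signalling genes and 55.4% of 249 surface genes. Some single lists lay near or below the 35.4% of all genes. Amino acid transport, sphingolipid metabolism and the list of glutamine, aspartate and proline held 33.3% each, and nuclear respiratory chain subunits 17%. Fatty acid oxidation and chemokine receptors held 37.5% each, BCL-2 and death receptors 37.9% and the tricarboxylic acid cycle 38.9%.

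**Figure D1:**
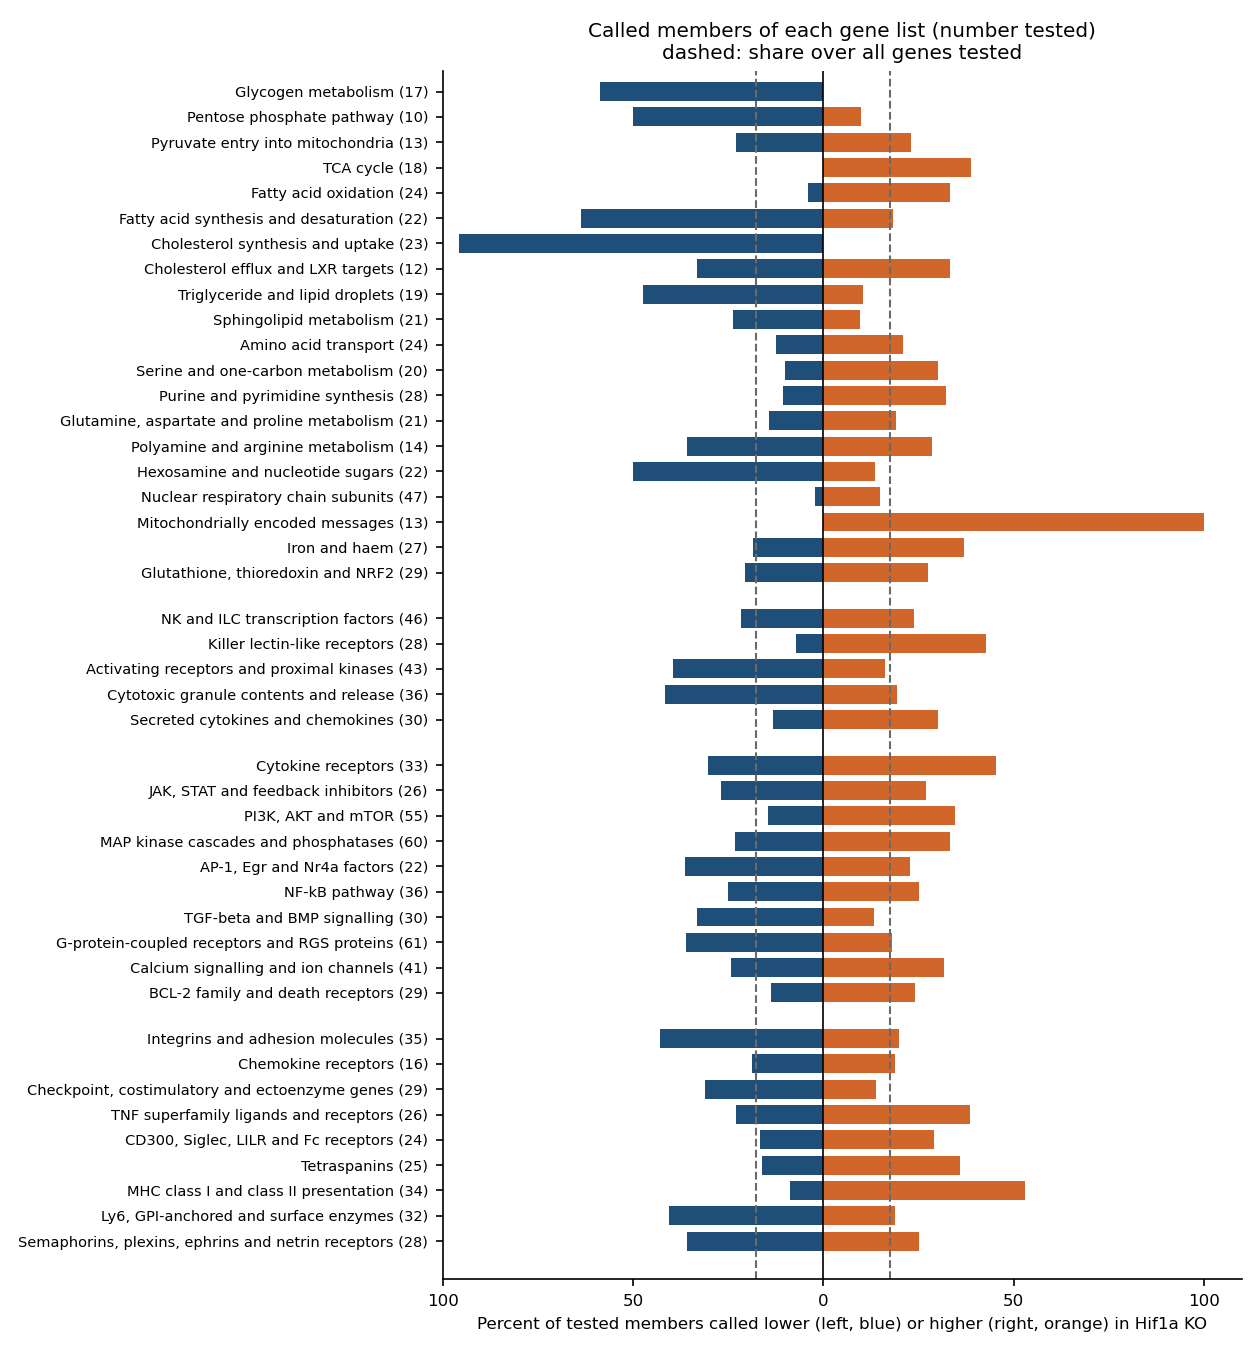
Percent of the tested members of each of 44 gene lists called lower (left) or higher (right) in Hif1a KO against Hif1a flox, with the number tested in parentheses and dashed lines at the shares over all genes tested, 17.8% lower and 17.6% higher. All 13 mitochondrially encoded messages were called higher and 22 of 23 cholesterol synthesis genes lower, while most other lists held calls in both directions.

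The same genes could be followed in the lines that lost Ahr. The Hif1a Ahr line had 5242 calls (31.3%; 14.8% higher and 16.5% lower) and the Ahr line 1157 (6.91%; 2.13% higher and 4.78% lower). Of the genes called higher in the Hif1a line, 1353 were also called higher in the Hif1a Ahr line (45.9% of the former and 54.4% of the latter), and of those called lower 1504 were also called lower (50.6% and 54.6%). Calls in opposite directions numbered 70 and 53. With the Ahr line, genes called higher after Hif1a loss and lower after Ahr loss numbered 454, which is 15.4% of the first list and 56.8% of the second. Another 177 were lower after Hif1a loss and higher after Ahr loss (5.96% and 49.6%). Calls in the same direction in both numbered 42 higher (1.42% and 11.8%) and 100 lower (3.36% and 12.5%), beside 17.6% and 17.8% of all genes called that way in the Hif1a line. The 3 lines share no libraries.

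**Figure D2:**
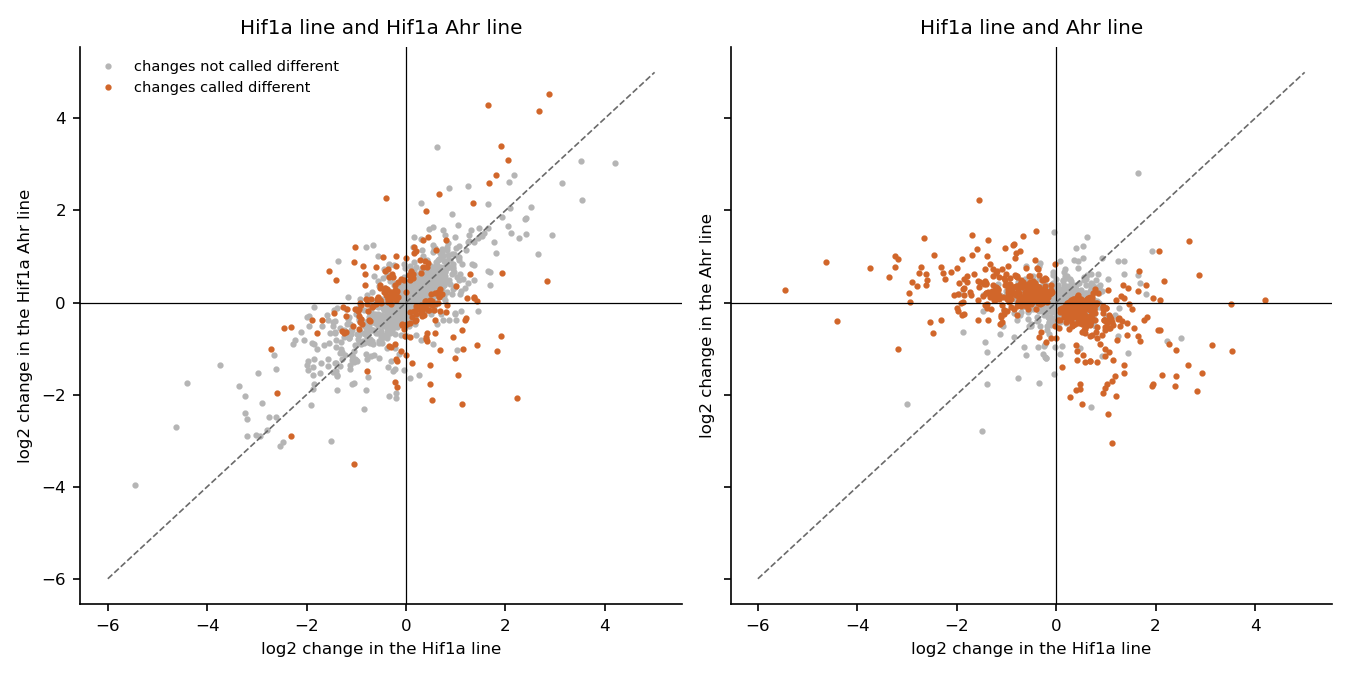
The log2 change in the Hif1a line (x axis) against that in the Hif1a Ahr line (left) or the Ahr line (right) for the 1247 tested genes of the 44 lists, with orange points where the difference between the changes was itself called and a dashed line of equal change. In the left panel 211 of the 1247 genes were called different, beside 9.65% of all genes, and most points lie along the line. In the right panel 604 of the 1247 were called different, beside 32.4% of all genes. Many of these 604 have opposite signs in the Hif1a and Ahr lines.

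The 12 largest falls outside the lists set aside, taken from called genes whose groups did not overlap, included an enzyme of lipid desaturation, receptors, a gap-junction protein and 3 matrix proteins. Scd1, the desaturase that makes monounsaturated fatty acids, stood at 19.9, 10.1 and 21.1 CPM in the flox libraries and 0.398, 0.188 and 0.583 CPM in the KO libraries (log2 change -5.45 ± 0.94, adjusted p = 0.000585). Tmem119, a single-pass membrane protein best known as a microglial marker, stood at 329, 231 and 433 CPM in the flox libraries and 21.6, 5.54 and 13 CPM in the KO libraries (-4.63 ± 0.58). In both genes replicate 2 was the lowest of each group.

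Plcxd1, which encodes a protein with a phospholipase C domain, stood at 13.5, 12.6 and 17.8 CPM in the flox libraries and 0.899, 0.614 and 0.548 CPM in the KO libraries (-4.41 ± 0.18, adjusted p = 4.8e-12). Thsd1, a membrane protein with a thrombospondin repeat, stood at 33.7, 28.4 and 41.5 CPM in the flox libraries and 2.21, 1.38 and 1.33 CPM in the KO libraries (-4.39 ± 0.28). Unc13a, a vesicle-priming protein related to the Unc13d used by cytotoxic granules, stood at 63.5, 59.2 and 72 CPM in the flox libraries and 4.31, 2.56 and 2.63 CPM in the KO libraries (-4.36 ± 0.27). For Plcxd1, Thsd1 and Unc13a the replicates of a group lay close together beside the distance between the groups.

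Apln, which encodes the secreted peptide apelin, stood at 17.5, 21 and 19.4 CPM in the flox libraries and 1, 1.11 and 0.954 CPM in the KO libraries (-4.23 ± 0.14, adjusted p = 1.04e-12), with even replicates in both groups. Rgs11, a protein that shortens G-protein signals, stood at 51.7, 48.7 and 52.5 CPM in the flox libraries and 3.11, 3.29 and 1.84 CPM in the KO libraries (-4.21 ± 0.22). Gja1, the gap-junction protein connexin 43, stood at 13.9, 11.1 and 10.1 CPM in the flox libraries and 1.12, 0.324 and 0.831 CPM in the KO libraries (-3.94 ± 0.41). In the Ahr line Gja1 went the other way, from 7.63 ± 3.52 to 35 ± 1.95 CPM (SD, n = 3, log2 change 2.20), and its fall in the Hif1a Ahr line was smaller (-1.07). The change of Gja1 differed between the Hif1a line and both other lines (adjusted p = 0.00729 and 1.89e-06).

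Notch3, a receptor of the Notch family, stood at 35.6, 22.8 and 40.6 CPM in the flox libraries and 3.53, 0.734 and 3.11 CPM in the KO libraries (-3.75 ± 0.72, adjusted p = 0.00133). A set of 3 matrix genes fell as well: Npnt, which encodes the integrin ligand nephronectin, by 3.65, Emilin2 by 3.56 and Frem2 by 3.56 on the log2 scale. Emilin2 was the most abundant of them, at 387, 347 and 419 CPM in the flox libraries and 39.8, 23.9 and 34.3 CPM in the KO libraries. All 12 genes were also called lower in the Hif1a Ahr line, with log2 changes from -4.08 for Plcxd1 to -1.07 for Gja1, and in the Ahr line none was called lower, while Apln and Gja1 were called higher.

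Promoters are shown for 4 of these falls, the largest whose 250 bases before a listed start held ACGTG, the commoner form of the HIF core, on either strand. The sequences run 5′ to 3′ along the gene and come from RefSeq on GRCm38.p6, an earlier build than the one the counts were made on. Capitals mark ACGTG, and also GCGTG, the core bound by AhR with Arnt and the other form of the HIF core, on either strand (CACGT and CACGC on the strand shown).
Plcxd1 (chr5:110100309-110100558, plus strand): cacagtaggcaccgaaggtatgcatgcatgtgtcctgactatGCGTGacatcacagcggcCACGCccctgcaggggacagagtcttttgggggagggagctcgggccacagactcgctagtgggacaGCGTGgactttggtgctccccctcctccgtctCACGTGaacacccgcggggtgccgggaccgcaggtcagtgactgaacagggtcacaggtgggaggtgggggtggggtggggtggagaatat
Thsd1 (chr8:22227053-22227302, plus strand): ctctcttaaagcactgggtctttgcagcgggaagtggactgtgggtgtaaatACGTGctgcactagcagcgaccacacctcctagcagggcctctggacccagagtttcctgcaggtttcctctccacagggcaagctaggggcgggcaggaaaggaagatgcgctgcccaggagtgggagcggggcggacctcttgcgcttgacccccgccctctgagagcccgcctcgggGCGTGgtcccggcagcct
Unc13a (chr8:71671758-71672007, minus strand): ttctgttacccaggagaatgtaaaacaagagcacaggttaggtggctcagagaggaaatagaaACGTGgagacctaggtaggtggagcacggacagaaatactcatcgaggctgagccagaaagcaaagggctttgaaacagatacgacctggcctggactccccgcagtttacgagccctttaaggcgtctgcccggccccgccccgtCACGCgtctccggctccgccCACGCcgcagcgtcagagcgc
Notch3 (chr17:32166891-32167140, minus strand): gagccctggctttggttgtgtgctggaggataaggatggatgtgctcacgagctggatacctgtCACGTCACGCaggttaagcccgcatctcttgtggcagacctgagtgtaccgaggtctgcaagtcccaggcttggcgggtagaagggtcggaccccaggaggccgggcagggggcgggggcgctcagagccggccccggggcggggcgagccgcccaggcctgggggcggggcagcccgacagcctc

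Plcxd1 holds the palindrome CACGTG, which counts on both strands, and in Notch3 the pair of motifs lie side by side. Of the 11045 tested genes with a promoter in the RefSeq table, 24.3% held the first of these motifs in the window before any of their starts and 47.5% held the second. The first was present in 29.4% of 2102 genes called lower and in 23.8% of 2273 called higher. It was present in 60% of the 60 genes of the lists set aside that had a window, but in 23.5% of the 327 other genes that fell at least 2-fold in both lines that lost Hif1a. These shares are descriptions of the letters in windows of this length, and no match says only that they are not in them. A gene with more listed starts had more windows to search. Apln and Frem2 held neither motif in their windows, Gja1 and Npnt held the second alone, and for Scd1, Tmem119 and Rgs11 no promoter is printed.

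**Figure D3:**
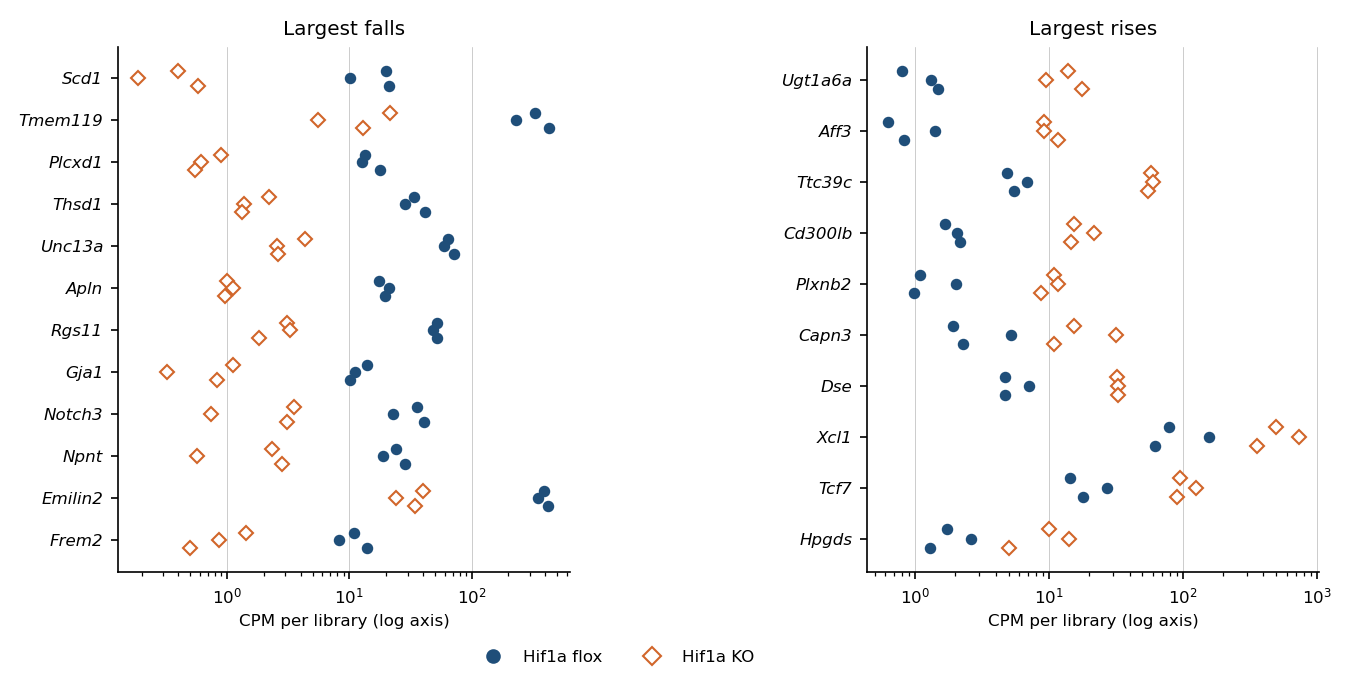
CPM of each library (log axis) for the 12 largest falls and 10 of the 12 largest rises, with filled circles for the 3 Hif1a flox and open diamonds for the 3 Hif1a KO libraries; Nnt, split over 2 gene IDs, is among those left out. Genes were chosen for groups that do not overlap, and among them the gap is widest for Scd1.

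The 12 largest rises, chosen by the same rule, included a transcription factor of lymphocytes and several enzymes. Tcf7, which encodes TCF-1, a factor of early NK and memory-like lymphocytes, stood at 14.3, 27.2 and 17.9 CPM in the flox libraries and 95.3, 125 and 90.7 CPM in the KO libraries (2.39 ± 0.37, adjusted p = 0.000234). Tcf7 fell in the Ahr line, from 19.1 ± 7.08 to 5.42 ± 1.41 CPM (SD, n = 3, -1.82).

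Ttc39c, a tetratricopeptide repeat protein, rose from 4.83, 6.89 and 5.46 to 58.1, 60.4 and 54.9 CPM (3.33 ± 0.17, adjusted p = 4.15e-10). Aff3, a nuclear protein of lymphoid cells, stood at 0.625, 1.41 and 0.832 CPM in the flox libraries and 9.17, 9.23 and 11.7 CPM in the KO libraries (3.39 ± 0.33). Cd300lb, an activating receptor of the CD300 family, stood at 1.67, 2.07 and 2.17 CPM in the flox libraries and 15.4, 21.9 and 14.7 CPM in the KO libraries (3.14 ± 0.30). All 3 genes were also called higher in the Hif1a Ahr line, with log2 changes of 2.76, 3.65 and 2.60.

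Enzymes made up much of the rest. Dse, an epimerase of dermatan sulphate synthesis, stood at 4.72, 7.11 and 4.67 CPM in the flox libraries and 32.1, 32.7 and 33.1 CPM in the KO libraries (2.57 ± 0.25). Ugt1a6a, a glucuronosyltransferase, stood at 0.795, 1.33 and 1.49 CPM in the flox libraries and 14, 9.5 and 17.6 CPM in the KO libraries (3.50 ± 0.46); its reads are shared with other Ugt1a genes, so the split among them is uncertain. Hpgds, which makes prostaglandin D, stood at 1.74, 2.62 and 1.3 CPM in the flox libraries and 10.1, 14.2 and 5.05 CPM in the KO libraries (2.37 ± 0.43). Rises were also called for the calpain protease Capn3 (2.63), which fell in the Ahr line (-2.74), and for the semaphorin receptor Plxnb2 (2.93).

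Nnt, which encodes the mitochondrial NAD(P) transhydrogenase, illustrates a limit of gene-level values. The symbol belongs to 2 gene IDs. ENSMUSG00000116207 rose from 0.36, 0 and 1.74 to 10.8, 9.42 and 10.4 CPM (3.87 ± 0.99, adjusted p = 0.00818), while ENSMUSG00000025453, the more abundant, stood at 39.8, 40.4 and 37.1 CPM with flox and 33, 38.9 and 23.1 CPM with KO and was not called. Their sums, 40.2, 40.4 and 38.8 CPM with flox and 43.7, 48.3 and 33.5 CPM with KO, overlapped.

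Among abundant genes, those averaging 300 CPM or more, a change of at least 2-fold was called for 3 higher and 17 lower. This count leaves out the 2 lists set aside, ribosomal protein genes, pseudogenes and genes with only a provisional name. Of all 2108 tested genes over 100 CPM, 10 were called higher and 103 lower by at least 2-fold. Prf1, which encodes the pore-forming protein perforin, stood at 3939, 2748 and 4040 CPM in the flox libraries and 817, 414 and 917 CPM in the KO libraries (-2.32 ± 0.31, adjusted p = 5.97e-05). Spp1, which encodes the secreted protein osteopontin, stood at 7327, 6056 and 8498 CPM in the flox libraries and 1502, 791 and 1687 CPM in the KO libraries (-2.46 ± 0.28). Gzmd, one of a cluster of related granzymes, stood at 6868, 4890 and 6848 CPM in the flox libraries and 1548, 626 and 1689 CPM in the KO libraries (-2.27 ± 0.34). The 3 genes share a pattern within each group, with replicate 2 the lowest among both flox and KO libraries, and even the lowest flox value was over 2 times the highest KO value.

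Tnfrsf9, the costimulatory receptor 4-1BB, stood at 2098, 1781 and 2101 CPM in the flox libraries and 878, 725 and 869 CPM in the KO libraries (-1.28 ± 0.11). Ptp4a3, a phosphatase of the PRL family, stood at 649, 525 and 779 CPM in the flox libraries and 135, 97.3 and 135 CPM in the KO libraries (-2.41 ± 0.23). Prelid1, which carries phosphatidic acid between the mitochondrial membranes, stood at 668, 640 and 717 CPM in the flox libraries and 292, 285 and 269 CPM in the KO libraries (-1.26 ± 0.08, adjusted p = 2.31e-09). Every KO library lay below every flox library in all 3.

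Avil, an actin-binding protein of the villin family, stood at 603, 562 and 601 CPM in the flox libraries and 177, 120 and 147 CPM in the KO libraries (-1.99 ± 0.23) and was also called lower in the Ahr line (-0.96). Ifitm2, an interferon-induced antiviral membrane protein, likewise fell in the Hif1a line (-1.19), in the Hif1a Ahr line (-1.25) and in the Ahr line (-0.69), the 3 lines whose KO cells carry Ncr1 iCre. Bsg, the chaperone of monocarboxylate transporters, fell by 1.05 in both the Hif1a line and the Hif1a Ahr line.

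Xcl1, a chemokine that attracts cross-presenting dendritic cells, stood at 78.8, 156 and 62.1 CPM in the flox libraries and 496, 734 and 359 CPM in the KO libraries (2.42 ± 0.66, adjusted p = 0.0117). Il12rb2, a chain of the interleukin 12 receptor, stood at 314, 422 and 272 CPM in the flox libraries and 703, 941 and 543 CPM in the KO libraries (1.12 ± 0.32, adjusted p = 0.015). In both genes replicate 2 was the highest of each group, and for Il12rb2, whose rule did not ask for it, every KO value was above every flox value. These calls were not firm: Xcl1 lost its call without flox replicate 1 (adjusted p = 0.0502) or 3 (0.053), and Il12rb2 without flox replicate 1 (0.0542), flox replicate 3 (0.065) or KO replicate 2 (0.0691).

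**Figure D4:**
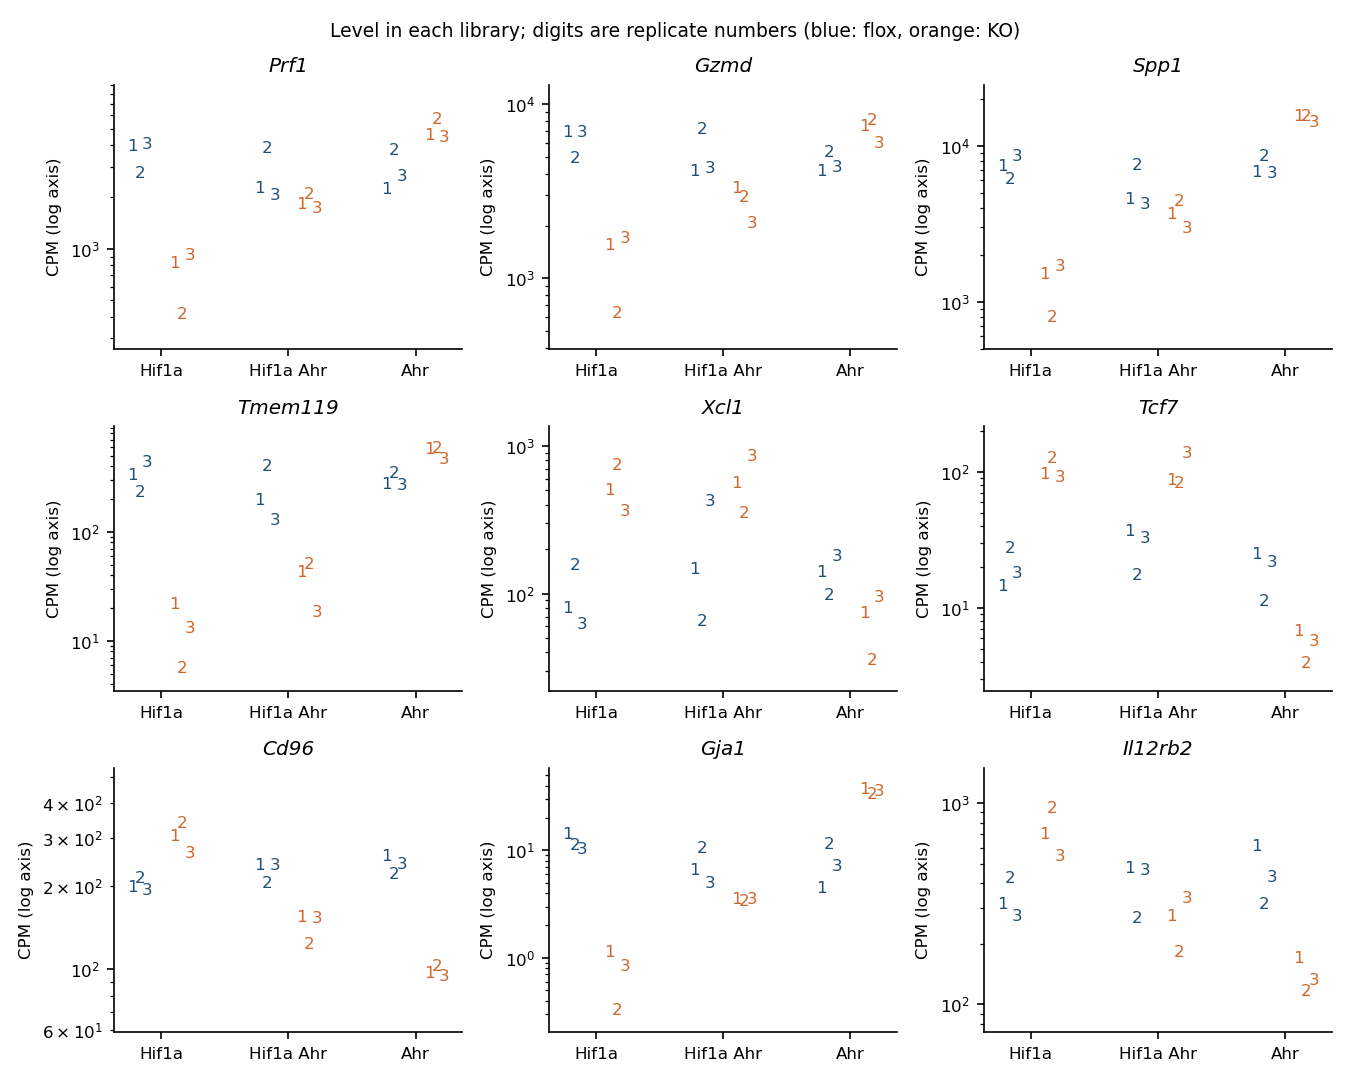
CPM (log axis) in all 18 libraries for 9 genes, with each library drawn as its replicate number, flox in blue and KO in orange, for the Hif1a, Hif1a Ahr and Ahr lines. Prf1, Gzmd and Spp1 lie lowest of all groups in the 3 Hif1a KO libraries, replicate 2 lowest of them, and Tcf7 and Il12rb2 move in opposite directions in the Hif1a and Ahr lines.

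In carbohydrate metabolism beyond glycolysis, genes of glycogen storage were lower. Of 17 tested glycogen genes 10 were called lower and 0 higher (median log2 change -0.34, against -0.01 over all genes); 2 were higher when scaled by library totals alone. Gys1, the glycogen synthase, stood at 61.8, 54.8 and 71.8 CPM in the flox libraries and 27.9, 27.2 and 30.1 CPM in the KO libraries (-1.15 ± 0.11). Gbe1, the branching enzyme (-1.40), Pygl, a phosphorylase that breaks glycogen down (-2.54), and Ppp1r3b, a scaffold that activates the synthase (-1.41), fell with it. Genes that build and genes that break down glycogen were thus both among the falls, and 8 of the 17 were lower in the Hif1a Ahr line against 0 in the Ahr line.

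The pentose phosphate pathway, which makes NADPH and ribose, held 5 of 10 tested genes lower and 1 higher. Pgd, phosphogluconate dehydrogenase, stood at 187, 179 and 196 CPM in the flox libraries and 110, 111 and 111 CPM in the KO libraries (-0.76 ± 0.06), and Tkt, transketolase, fell by 0.28. G6pdx, the first enzyme, did not pass the test (-0.05), and Taldo1, transaldolase, rose (0.48). Scaled by library totals alone, without KO replicate 2 or with the replicate block, 2 members were higher.

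Nucleotide sugar genes, which feed glycosylation, held 11 of 22 members lower and 3 higher (5 higher by library totals alone). Galk1, the galactokinase, stood at 124, 124 and 130 CPM in the flox libraries and 34.6, 34.6 and 33.6 CPM in the KO libraries (-1.88 ± 0.08, adjusted p = 4.57e-12), with nearly equal KO libraries. Smaller falls were called for Gmppa (-0.72), a subunit that controls GDP-mannose synthesis, and Gne (-0.82), which starts sialic acid synthesis.

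Among genes of the mitochondrial use of fuel most calls in the Hif1a line were upward. Of 18 tested tricarboxylic acid (TCA) cycle genes 7 were called higher and 0 lower. Idh2, the NADP-dependent isocitrate dehydrogenase, stood at 22.8, 30.1 and 20.5 CPM in the flox libraries and 43.6, 52.9 and 44.3 CPM in the KO libraries (0.94 ± 0.18), and Sdhb, the iron-sulphur subunit of succinate dehydrogenase, at 86.9, 86.4 and 80.3 CPM in the flox libraries and 119, 117 and 127 CPM in the KO libraries (0.51 ± 0.09). Cs, citrate synthase, rose by 0.33 on the log2 scale. For fatty acid oxidation 8 of 24 genes were called higher (14 by library totals alone) and 1 lower. The lower call was lost when any 1 of the 6 libraries was left out. In the Hif1a Ahr line this list leaned the other way, with 2 of the 24 called higher and 5 lower (median -0.01). Cpt1a, which carries long fatty acids into mitochondria and limits the rate of their oxidation, stood at 59.9, 67.3 and 61.5 CPM in the flox libraries and 107, 116 and 95.4 CPM in the KO libraries (0.75 ± 0.09). Around pyruvate entry 3 of 13 genes were higher (5 by library totals alone) and 3 lower, with the carrier subunit Mpc1 higher (0.31) and pyruvate carboxylase Pcx lower (-0.90).

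All 13 mitochondrially encoded messages were called higher (median 0.73). Of these, mt-Cytb, the cytochrome b of complex III, stood at 1415, 903 and 956 CPM in the flox libraries and 2537, 1900 and 2318 CPM in the KO libraries (1.05 ± 0.21), and mt-Co1, a core subunit of cytochrome oxidase, at 9559, 7363 and 8567 CPM in the flox libraries and 13264, 12817 and 14661 CPM in the KO libraries (0.68 ± 0.12). The count fell to 8 without flox replicate 2 and to 7 without flox replicate 3. These messages were called higher for 12 members in the Hif1a Ahr line (median 1.00) and for 0 in the Ahr line (median 0.26). Of 47 nuclear genes for the respiratory chain 6 were higher and 6 lower in the Hif1a Ahr line. In the Hif1a line 7 of the 47 were higher and 1 lower, with a median of 0.11. That count was sensitive to processing, with 24 higher by library totals alone, 15 in a fit of the Hif1a line alone, and 2 (without flox 2, flox 3 or KO 3) or 3 (without flox 1, KO 1 or KO 2) when 1 library was left out. Ndufa4, a cytochrome oxidase subunit, stood at 43.1, 49 and 41.1 CPM in the flox libraries and 82.8, 94.4 and 80.7 CPM in the KO libraries (0.95 ± 0.12) and was also higher in the Hif1a Ahr line (0.78).

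The lists of lipid synthesis held the largest shares of falls among the metabolic lists. Of 23 tested genes of cholesterol synthesis and uptake 22 were called lower and 0 higher, with a median log2 change of -1.14. Lss, lanosterol synthase, stood at 225, 219 and 257 CPM in the flox libraries and 91.5, 91.7 and 101 CPM in the KO libraries (-1.30 ± 0.13, adjusted p = 6.08e-07). Fdps, which makes farnesyl diphosphate, stood at 397, 348 and 442 CPM in the flox libraries and 152, 143 and 185 CPM in the KO libraries (-1.31 ± 0.13). Hmgcs1, which starts the mevalonate pathway, stood at 822, 695 and 1016 CPM in the flox libraries and 309, 241 and 394 CPM in the KO libraries (-1.42 ± 0.26).

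Every KO value of these 3 genes was below every flox value. Srebf2, the transcription factor that drives this pathway, fell by 0.51, and Insig1, which holds it back in the endoplasmic reticulum, by 1.14 on the log2 scale. The list fell less broadly in the Hif1a Ahr line, with 14 of 23 lower and a median of -0.54. The change itself was called more negative in the Hif1a line for 2 of the 23, beside 4.53% of all genes. In the Ahr line no member was called (median 0.21), and 21 members differed in their change from the Hif1a line, beside 32.4% of all genes.

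**Figure D5:**
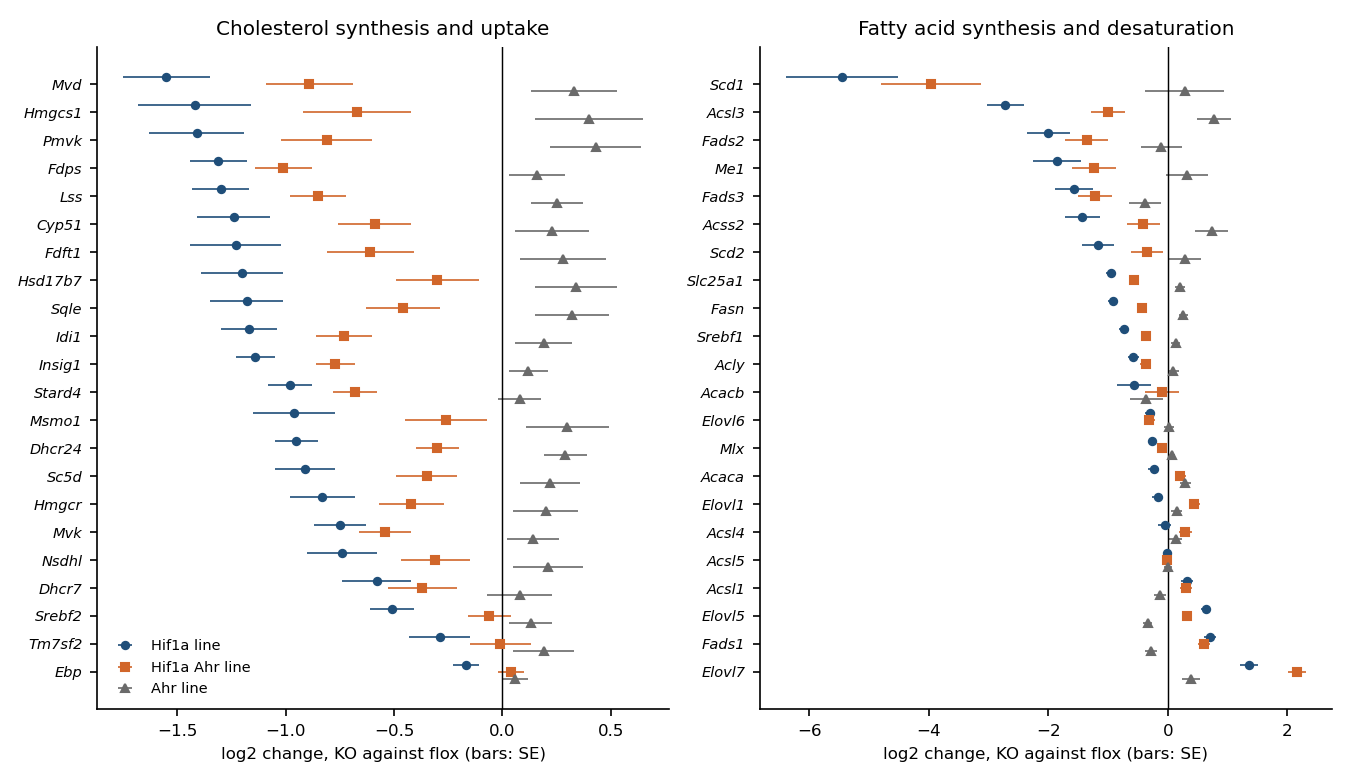
Log2 change of KO against flox with its standard error for 22 of the 23 tested genes of cholesterol synthesis and uptake (left) and each tested gene of fatty acid synthesis (right) in the Hif1a line (blue), the Hif1a Ahr line (orange) and the Ahr line (grey). On the left every blue point drawn lies below 0 and every grey point above 0; on the right Scd1 lies farthest from 0.

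Fatty acid synthesis and desaturation held 14 of 22 members lower and 4 higher (median -0.58). Fasn, fatty acid synthase, stood at 400, 432 and 468 CPM in the flox libraries and 220, 237 and 230 CPM in the KO libraries (-0.92 ± 0.08), and Acsl3, which activates fatty acids for lipid droplets, at 9.02, 7.14 and 10.4 CPM in the flox libraries and 1.33, 0.921 and 1.77 CPM in the KO libraries (-2.72 ± 0.31). Slc25a1, the carrier that exports citrate from mitochondria (-0.95), and Srebf1, the matching transcription factor (-0.74), fell too. The elongases Elovl7 (1.35) and Elovl5 (0.63) rose. In 7 of the 22 members the change was more negative than in the Hif1a Ahr line, beside 4.53% of all genes.

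Handling of stored lipid changed in parts. Of 19 genes for triglyceride and lipid droplets 9 were lower and 2 higher; 5 were higher by library totals alone and 1 without flox replicate 3 or KO replicate 2. Fabp5, a fatty acid carrier, stood at 26.6, 28.5 and 25.8 CPM in the flox libraries and 13.2, 11.8 and 14.1 CPM in the KO libraries (-1.05 ± 0.10). In sphingolipid metabolism 5 of 21 were lower (3 by library totals alone or without KO replicate 2) and 2 higher. Spns2, the exporter of sphingosine 1-phosphate, stood at 21.8, 17.1 and 30 CPM in the flox libraries and 3.37, 2.66 and 3.2 CPM in the KO libraries (-2.90 ± 0.22), and Smpd1, acid sphingomyelinase, at 75, 68.2 and 86.8 CPM in the flox libraries and 30.5, 31.9 and 29.4 CPM in the KO libraries (-1.32 ± 0.09). Cholesterol efflux genes were split, 4 higher and 4 lower of 12 (2 lower by library totals alone), with the efflux pump Abca1 up (0.76) and the ubiquitin ligase gene Mylip down (-0.92).

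Amino acid, folate and nucleotide genes were mixed. For amino acid transport 5 of 24 were higher and 3 lower, a share called of 33.3% beside 35.4% of all genes. The lower count was 0 by library totals alone or without flox replicate 3 and 1 without flox replicate 1 or KO replicate 2, and the higher count 8 by library totals alone and 9 with the replicate block. Slc7a5, the large neutral amino acid carrier, stood at 211, 187 and 263 CPM in the flox libraries and 348, 302 and 453 CPM in the KO libraries (0.74 ± 0.21, adjusted p = 0.0152), and it lost its call without flox replicate 1 (0.053), flox replicate 2 (0.0641) or KO replicate 3 (0.0743), or without the count filter (0.0503). The glutamine carrier Slc38a1 rose by 0.34 on the log2 scale.

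In one-carbon metabolism 6 of 20 were higher (3 without flox replicate 1, 2 without KO replicate 3) and 2 lower. Mthfd2, the mitochondrial folate dehydrogenase of proliferating cells, stood at 105, 97.2 and 119 CPM in the flox libraries and 178, 172 and 214 CPM in the KO libraries (0.81 ± 0.14), while the folate enzymes Mthfd1l (-0.69) and Aldh1l1 (-1.72) fell. For purine and pyrimidine synthesis 9 of 28 were higher and 3 lower. Subunits of ribonucleotide reductase, Rrm2 (0.67) and Rrm1 (0.45), rose, and the purine enzymes Impdh1 (-0.94) and Adss1 (-1.19) fell. These 4 genes went the opposite way in the Ahr line, at -0.46, -0.34, 0.40 and 0.68, each of them called.

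Among polyamine genes 4 of 14 were higher and 5 lower (3 lower by library totals alone or without flox 1, flox 3 or KO 3). A pair of catabolic enzymes carried the largest falls. Smox, spermine oxidase, stood at 62.4, 45.5 and 72.3 CPM in the flox libraries and 18, 10.3 and 17.7 CPM in the KO libraries (-1.97 ± 0.27), and Sat1, which acetylates spermidine and spermine, at 274, 182 and 289 CPM in the flox libraries and 93.2, 54.3 and 89.5 CPM in the KO libraries (-1.65 ± 0.29). For glutamine, aspartate and proline 4 of 21 were higher and 3 lower (8 higher by library totals alone, 7 with the block), with Ass1 up (1.26) and Asl down (-0.56), successive enzymes of arginine synthesis.

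Genes of redox control included several targets of the stress factor NRF2. Nfe2l2, which encodes NRF2, stood at 22.3, 26.4 and 23.7 CPM in the flox libraries and 58.4, 62.3 and 56.5 CPM in the KO libraries (1.29 ± 0.12). Gclm, a subunit of the enzyme that starts glutathione synthesis, stood at 6.89, 8.21 and 8.64 CPM in the flox libraries and 16.4, 19.9 and 18.6 CPM in the KO libraries (1.21 ± 0.11). Nqo1, a quinone reductase that is also a classical AhR target, stood at 0.492, 1.01 and 0.888 CPM in the flox libraries and 5.24, 5.82 and 6.04 CPM in the KO libraries (2.83 ± 0.24). All 3 were above flox in every KO library, and Nqo1 and Nfe2l2 were called lower in the Ahr line (-1.93 and -0.50). The list as a whole had 8 of 29 higher and 6 lower (15 and 3 by library totals alone), the falls including the peroxiredoxin Prdx5 (-1.07) and Txnip, which binds thioredoxin and restrains glucose uptake (-0.81).

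For iron and haem 10 of 27 genes were higher and 5 lower, the lower count being 2 without flox 3 or KO 1 and 3 without flox 1, KO 2 or KO 3, by library totals alone or in a fit of the Hif1a line alone. Tfrc, the transferrin receptor, stood at 564, 596 and 513 CPM in the flox libraries and 343, 305 and 328 CPM in the KO libraries (-0.78 ± 0.06). The haem exporter Flvcr1 (0.71) and the mitochondrial iron carrier Slc25a37 (0.46) rose.

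Transcription factors of NK and other innate lymphoid cells changed in both directions, 11 of 46 higher (17 by library totals alone) and 10 lower. Nfil3, needed for NK development, stood at 241, 232 and 281 CPM in the flox libraries and 111, 91.9 and 133 CPM in the KO libraries (-1.16 ± 0.13). Id2, the inhibitor of E proteins that defines innate lymphoid cells, stood at 1060, 887 and 1073 CPM in the flox libraries and 699, 633 and 629 CPM in the KO libraries (-0.62 ± 0.10). Prdm1, which encodes Blimp-1, a factor of mature effector lymphocytes, stood at 105, 89.4 and 119 CPM in the flox libraries and 43.7, 35.3 and 50.6 CPM in the KO libraries (-1.28 ± 0.19). All 3 lay lower in every KO library, and Id3, a relative of Id2 with a role in resting and memory lymphocytes, fell from 17.7, 11 and 25.1 to 2.2, 2 and 3.55 CPM (-2.80 ± 0.57).

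On the other side, Stat4, which transmits interleukin 12 signals, stood at 132, 129 and 132 CPM in the flox libraries and 208, 199 and 209 CPM in the KO libraries (0.65 ± 0.06), and Ikzf2, which encodes Helios, at 7.69, 9.45 and 7.07 CPM in the flox libraries and 17.5, 19.9 and 16.1 CPM in the KO libraries (1.14 ± 0.19). Zeb2, a factor of terminal maturation, rose by 0.84 and Sox4 by 2.08 on the log2 scale. The T-box pair split: Tbx21 (T-bet) rose (0.53) and Eomes fell (-0.60), from 340, 287 and 338 to 228, 166 and 244 CPM. Eomes rose in both other lines (0.77 in the Hif1a Ahr line and 0.75 in the Ahr line), and the difference from each was called (adjusted p = 0.00215 and 0.000215).

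Killer lectin-like receptors, which sense MHC class I and related ligands, leaned upward in the Hif1a line, with 12 of 28 higher and 2 lower (4 lower with the replicate block). The Hif1a Ahr line did not share this lean, with 5 of the 28 called higher and 6 lower (median -0.05). Klrk1, which encodes the activating receptor NKG2D, stood at 258, 278 and 210 CPM in the flox libraries and 420, 429 and 392 CPM in the KO libraries (0.73 ± 0.14). Klrb1f, an activating receptor of the NKR-P1 family, stood at 21.4, 25.1 and 19.2 CPM in the flox libraries and 65.2, 66.2 and 74.1 CPM in the KO libraries (1.64 ± 0.18). KO values exceeded flox values in both. Klri2 (0.47) and Clec2i, a lectin of the family that NKR-P1 receptors bind (1.13), also rose. Many of these genes are close copies, so the split of reads among them is uncertain.

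Among activating receptors and the kinases and adaptors next to them 17 of 43 were lower and 7 higher (12 with the replicate block). Slamf7, a self-recognising receptor of the SLAM family, stood at 234, 210 and 238 CPM in the flox libraries and 114, 119 and 117 CPM in the KO libraries (-0.96 ± 0.08). The pair of tandem-SH2 kinases moved apart: Zap70 stood at 172, 170 and 191 CPM in the flox libraries and 106, 109 and 98.8 CPM in the KO libraries (-0.77 ± 0.08) and Syk at 31.2, 28.5 and 36.6 CPM in the flox libraries and 51.1, 54.8 and 60.5 CPM in the KO libraries (0.79 ± 0.09). Adaptors also differed, with Lcp2 (SLP-76) up (0.69) and Sh2d1b1, which carries SLAM signals, down (-0.46). The signalling chains Fcer1g (-0.76) and Tyrobp, or DAP12 (-0.40), fell.

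Genes of the cytotoxic granule held 15 of 36 lower and 7 higher. Besides Prf1 and Gzmd, Gzmg stood at 2814, 1871 and 3569 CPM in the flox libraries and 401, 112 and 285 CPM in the KO libraries (-3.37 ± 0.54), and Gzmb, the main death-inducing granzyme, at 15758, 13122 and 14263 CPM in the flox libraries and 10742, 9575 and 10348 CPM in the KO libraries (-0.49 ± 0.12). Granzymes D to G are near copies of each other, and reads may be split wrongly among them. Ctsd, the lysosomal protease cathepsin D, stood at 2463, 2031 and 2584 CPM in the flox libraries and 1363, 979 and 1437 CPM in the KO libraries (-0.91 ± 0.14). The docking protein Sytl3 fell (-0.56) and the granule membrane protein Lamp1 rose (0.57).

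Prf1 was not called in the Hif1a Ahr line (-0.53 ± 0.30), and the change differed between the lines (adjusted p = 0.0199), though not without flox replicate 1 (0.051) or 3 (0.0525) or without the count filter (0.0504). Gzmd was called lower there (-0.91 ± 0.32), and the difference of the changes did not reach the threshold (adjusted p = 0.0792). Of 36 granule genes 6 had a more negative and 3 a more positive change than in the Hif1a Ahr line. Over all genes the shares were 4.53% and 5.12%.

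Secreted factors had 9 of 30 genes higher and 4 lower (7 lower with the replicate block). Tnf, which encodes tumour necrosis factor, stood at 5.38, 7.95 and 5.25 CPM in the flox libraries and 18.6, 38.3 and 22.4 CPM in the KO libraries (2.09 ± 0.37). Lif, a cytokine of the interleukin 6 family, rose by 2.06 on the log2 scale, and Grn, which encodes progranulin, stood at 18, 22.2 and 20.1 CPM in the flox libraries and 35.9, 36.9 and 33.9 CPM in the KO libraries (0.82 ± 0.13). These 3 were higher in every KO library and were also called higher in the Hif1a Ahr line. Ifng, the gene of interferon gamma, did not pass the test (-0.47 ± 0.31, adjusted p = 0.283), although all KO values, 46.7, 49.5 and 45.3 CPM, were below the flox values, 69.7, 67 and 58.6 CPM. With the replicate number as a block Ifng was called lower (-0.46, adjusted p = 0.000367). It was also called lower in a fit of the Hif1a line alone, without the block (-0.46, adjusted p = 0.00111). The chemokines Ccl3 (-0.06) and Ccl5 (0.07) did not pass the test either way.

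Cytokine receptors were among the lists with the largest share of calls, 15 of 33 higher and 10 lower. Ifnar2, a chain of the type I interferon receptor, stood at 31, 30.3 and 29.7 CPM in the flox libraries and 48.3, 47.7 and 53.8 CPM in the KO libraries (0.72 ± 0.09), and its partner Ifnar1 rose by 0.43. Il4ra stood at 93.6, 99.3 and 103 CPM in the flox libraries and 144, 146 and 148 CPM in the KO libraries (0.56 ± 0.06) and Il17ra at 50.2, 51.4 and 48.3 CPM in the flox libraries and 81.8, 80.1 and 84.7 CPM in the KO libraries (0.72 ± 0.08). Il2rb, the beta chain of the IL-2 receptor, stood at 3193, 2802 and 3385 CPM in the flox libraries and 2401, 2235 and 2409 CPM in the KO libraries (-0.41 ± 0.10). Il2ra, the alpha chain, missed the threshold (0.52, adjusted p = 0.0565) and passed it with the replicate block (0.52, adjusted p = 0.00452) and in DESeq2 (adjusted p = 0.0156). It also passed in a fit of the Hif1a line alone (adjusted p = 0.00215) and by library totals alone (0.61, adjusted p = 0.0353). Lifr, the receptor for Lif, stood at 3.33, 2.54 and 3.55 CPM in the flox libraries and 0.467, 0.171 and 0.389 CPM in the KO libraries (-3.19 ± 0.49), opposite to its ligand. Kit, the stem cell factor receptor, rose from 194, 235 and 218 to 416, 491 and 381 CPM (0.99 ± 0.21) but fell in the Hif1a Ahr line (-1.21) and in the Ahr line (-1.86).

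Below the receptors, 7 of 26 JAK and STAT pathway genes were higher and 7 lower. Jak3, the kinase of the shared IL-2 receptor chain, stood at 295, 290 and 301 CPM in the flox libraries and 113, 121 and 94.7 CPM in the KO libraries (-1.43 ± 0.09, adjusted p = 9.67e-10). Usp18, an interferon-induced brake, rose by 1.44 on the log2 scale. The survival kinases Pim3 (-1.25) and Pim2 (-0.78) fell, and Stat5a (-0.09) and Stat5b (-0.05) did not pass the test.

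In the PI3K, AKT and mTOR list 19 of 55 were higher and 8 lower (13 lower with the replicate block). The kinase subunit Pik3cd stood at 552, 510 and 591 CPM in the flox libraries and 359, 391 and 360 CPM in the KO libraries (-0.57 ± 0.07) and its adaptor Pik3ap1 at 398, 345 and 430 CPM in the flox libraries and 157, 140 and 147 CPM in the KO libraries (-1.40 ± 0.13). Restraints on mTORC1 were among the rises: the arginine sensor Castor1 (1.81), its relative Castor2 (1.52) and the sestrin Sesn3 (0.97). Mtor (-0.05) and Akt1 (-0.10) did not pass the test.

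MAP kinase genes had 20 of 60 higher and 14 lower. Map2k1, the kinase MEK1, stood at 170, 165 and 188 CPM in the flox libraries and 69.4, 70.2 and 68.8 CPM in the KO libraries (-1.33 ± 0.07, adjusted p = 8.41e-11). Mapk11, the p38 beta kinase, stood at 0.701, 0.866 and 0.529 CPM in the flox libraries and 8.49, 9.88 and 6.19 CPM in the KO libraries (3.54 ± 0.32), and its relative Mapk12 rose by 4.21 from a very low level. The ERK1 gene Mapk3 (0.04) did not pass the test.

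Immediate-early factors of the AP-1, Egr and Nr4a families held 8 of 22 lower and 5 higher (10 with the replicate block), with a median log2 change of 0.26. Jund stood at 461, 414 and 505 CPM in the flox libraries and 200, 216 and 186 CPM in the KO libraries (-1.20 ± 0.11) and Maff at 72.6, 65.9 and 61.1 CPM in the flox libraries and 26.7, 25.1 and 15.4 CPM in the KO libraries (-1.57 ± 0.21), both lower in every KO library. Nr4a2 (-0.84) and Fosl2 (-0.83) fell, with Fosl2 higher in the Ahr line (0.60). Among the rises were Egr2 (1.76), Nr4a1 (1.69) and, from a low level, Batf3 (1.80).

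In the NF-kB list 9 of 36 were higher and 9 lower. Tnfaip3, the brake A20, stood at 154, 151 and 129 CPM in the flox libraries and 79, 78.1 and 79.1 CPM in the KO libraries (-0.88 ± 0.09), and Ripk3, a kinase of necroptosis, at 57.7, 62.2 and 61 CPM in the flox libraries and 36.6, 35.5 and 33.3 CPM in the KO libraries (-0.78 ± 0.09). Tnfaip8, a lipid-binding protein with roles in cell survival, stood at 28.9, 39.6 and 28.6 CPM in the flox libraries and 81.9, 93.8 and 75.4 CPM in the KO libraries (1.37 ± 0.18) and fell in the Ahr line (-1.36). The kinase gene Chuk rose by 0.36 on the log2 scale.

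Genes of transforming growth factor beta signalling, a restraint on NK cells, held 10 of 30 lower and 4 higher (7 with the replicate block, 2 without flox replicate 1). Smad3, a transducer of the signal, stood at 34.7, 39 and 40.7 CPM in the flox libraries and 71.8, 81 and 82.6 CPM in the KO libraries (1.04 ± 0.11). Lrrc32, the surface anchor of the latent ligand, stood at 5.19, 4.24 and 7.18 CPM in the flox libraries and 0.917, 1.02 and 0.76 CPM in the KO libraries (-2.62 ± 0.35), and Ltbp3, which binds it in the matrix, at 121, 102 and 117 CPM in the flox libraries and 73.5, 60.4 and 73.6 CPM in the KO libraries (-0.71 ± 0.09).

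G-protein-coupled receptors and RGS proteins leaned down, 22 of 61 lower and 11 higher. Arrb1, beta-arrestin 1, which ends receptor signals, stood at 349, 348 and 389 CPM in the flox libraries and 76.2, 83.6 and 59.6 CPM in the KO libraries (-2.31 ± 0.13, adjusted p = 1.41e-09). Adgrg1, the adhesion receptor GPR56, stood at 98.8, 113 and 108 CPM in the flox libraries and 16.8, 15.8 and 6.98 CPM in the KO libraries (-3.01 ± 0.42) and fell in the other lines too (-2.87 and -2.20).

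For calcium signalling and ion channels 13 of 41 were higher and 10 lower. Stim2, a sensor of stored calcium, stood at 29.5, 31.8 and 29.3 CPM in the flox libraries and 57, 60.3 and 60 CPM in the KO libraries (0.97 ± 0.09). The potassium channels Kcnj8 (-1.28) and Kcnk6 (-1.39) fell, the latter in all 3 lines (-1.60 and -1.08 in the others). In the BCL-2 and death receptor list 7 of 29 were higher and 4 lower, the lower count being 2 by library totals alone, without the count filter or without flox 1 or KO 2, and 1 without flox 3. Bcl2l11, the death-promoting protein BIM, stood at 121, 120 and 128 CPM in the flox libraries and 220, 224 and 197 CPM in the KO libraries (0.80 ± 0.11), and Cflar, which blocks caspase 8, at 97.1, 92.7 and 100 CPM in the flox libraries and 63, 66.3 and 69.3 CPM in the KO libraries (-0.55 ± 0.06). Mcl1 (0.08) and Bcl2 (0.04), survival genes of NK cells, did not pass the test.

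At the cell surface, integrins and adhesion molecules leaned down, with 15 of 35 lower and 7 higher. Itga1, the collagen-binding alpha chain CD49a, stood at 213, 219 and 234 CPM in the flox libraries and 59.4, 77.3 and 44.6 CPM in the KO libraries (-1.88 ± 0.19). Cdh1, E-cadherin, stood at 265, 289 and 280 CPM in the flox libraries and 43.7, 56.3 and 23.3 CPM in the KO libraries (-2.76 ± 0.30). Emb, which encodes embigin, stood at 107, 159 and 105 CPM in the flox libraries and 480, 517 and 428 CPM in the KO libraries (1.94 ± 0.27) and fell in the Ahr line (-1.77). No value of one group crossed into the other in these 3 genes, and Itga1 and Cdh1 were also called lower in the Hif1a Ahr line (-1.87 and -2.49).

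Checkpoint, costimulatory and ectoenzyme genes held 9 of 29 lower and 4 higher. Vsir, the inhibitory receptor VISTA, stood at 332, 282 and 378 CPM in the flox libraries and 138, 131 and 111 CPM in the KO libraries (-1.38 ± 0.14). Havcr2, the receptor TIM-3, stood at 152, 123 and 151 CPM in the flox libraries and 40.5, 24.8 and 57.7 CPM in the KO libraries (-1.79 ± 0.24), and Entpd1, the ATP-degrading ectoenzyme CD39, at 189, 144 and 199 CPM in the flox libraries and 66.5, 52 and 73.3 CPM in the KO libraries (-1.47 ± 0.19). Each was lower in every KO library. Cd96, a receptor for the adhesion molecule CD155, rose (0.58), while Lag3 (-0.20) did not pass the test.

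In the tumour necrosis factor superfamily 10 of 26 were higher and 6 lower. Tnfsf9, the ligand of Tnfrsf9, stood at 11.1, 12.2 and 14.5 CPM in the flox libraries and 3.34, 3.55 and 3.61 CPM in the KO libraries (-1.85 ± 0.22), so that receptor and ligand were both lower. Tnfsf8, the CD30 ligand, stood at 7.99, 15.8 and 10.5 CPM in the flox libraries and 43.3, 57.8 and 48.1 CPM in the KO libraries (2.12 ± 0.29) and fell in the Ahr line (-1.58).

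Genes of antigen presentation leaned up, 18 of 34 higher and 3 lower (median 0.37). H2-K1, a classical class I heavy chain, stood at 1175, 1200 and 1256 CPM in the flox libraries and 1675, 1794 and 1643 CPM in the KO libraries (0.49 ± 0.08), and Tap1, a subunit of the peptide transporter, at 151, 145 and 169 CPM in the flox libraries and 209, 214 and 216 CPM in the KO libraries (0.46 ± 0.06). A smaller rise was called for H2-D1 (0.36). H2-Ab1, a class II chain, went the other way and stood at 38.3, 36.5 and 44.1 CPM in the flox libraries and 5.66, 5.63 and 4.14 CPM in the KO libraries (-2.94 ± 0.16), while its partner H2-Aa did not pass the test (0.45). Class I genes are close copies and their split is uncertain.

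Tetraspanin and MS4A genes had 9 of 25 members higher and 4 lower. Ms4a4b, a membrane protein of lymphocytes, stood at 53.8, 55.3 and 49.2 CPM in the flox libraries and 150, 137 and 215 CPM in the KO libraries (1.66 ± 0.18) and rose in the other lines too (2.60 and 0.69), and Cd9 stood at 66.7, 69 and 63.4 CPM in the flox libraries and 115, 120 and 107 CPM in the KO libraries (0.78 ± 0.09). In the CD300, Siglec and Fc receptor list 7 of 24 were higher and 4 lower (7 lower with the replicate block). Cd300a, an inhibitory receptor, rose with its relative Cd300lb, from 0.398, 0.595 and 0.397 to 4.7, 6.06 and 5.27 CPM (3.52 ± 0.25).

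Ly6, GPI-anchored and other surface proteins held 13 of 32 lower and 6 higher. Sdc4, a heparan sulphate proteoglycan, stood at 19.8, 17.3 and 19.1 CPM in the flox libraries and 3.36, 2.93 and 2.97 CPM in the KO libraries (-2.60 ± 0.12). Thy1 stood at 577, 514 and 619 CPM in the flox libraries and 330, 327 and 364 CPM in the KO libraries (-0.74 ± 0.09). Cd55, which protects cells from complement, fell by 1.95 on the log2 scale. Among semaphorins, plexins and related guidance receptors 7 of 28 were higher and 10 lower. Sema6d, a membrane-bound semaphorin, stood at 398, 419 and 416 CPM in the flox libraries and 179, 230 and 119 CPM in the KO libraries (-1.22 ± 0.21).

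Chemokine receptors had 3 of 16 members higher and 3 lower. Cxcr4, which holds cells in bone marrow, stood at 9.53, 9.83 and 14.1 CPM in the flox libraries and 2.56, 3.77 and 3.36 CPM in the KO libraries (-1.79 ± 0.23), and Cxcr3, which leads cells to inflamed tissue, at 6.36, 7.81 and 8.85 CPM in the flox libraries and 12.4, 13.6 and 11.1 CPM in the KO libraries (0.69 ± 0.16). The other 4 calls did not withstand the loss of 1 library. The higher count was 1 in a fit of the Hif1a line alone or without flox 1 or flox 3, and the lower count 1 without flox 2 or KO 3 and 5 with the replicate block.

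The change in the Hif1a line was also set against that in each other line by a test of the difference. If the losses of Hif1a and Ahr add, a gene that Ahr loss alone changes differs between the Hif1a and Hif1a Ahr lines, so this test does not ask whether the effect of Hif1a loss depends on Ahr. Against the Hif1a Ahr line 1615 genes (9.65%) differed, 857 (5.12%) with a more positive and 758 (4.53%) with a more negative change in the Hif1a line. These counts rested on single libraries: they fell to 448 and 402 without flox replicate 1, to 484 and 390 without flox replicate 3 and to 412 and 339 without KO replicate 2, the negative count fell to 495 without KO replicate 1, and with the replicate block they were 1556 and 1602. Cd96 rose in the Hif1a line (0.58 ± 0.10) but fell from 227 ± 18.8 to 143 ± 17.1 CPM (SD, n = 3) in the Hif1a Ahr line (-0.66 ± 0.10), a difference of 1.24 ± 0.14 (adjusted p = 0.000191), and Cd96 also fell in the Ahr line (-1.29). Srr, serine racemase, stood at 12.4, 12.6 and 13 CPM in the flox libraries and 24, 26.7 and 23.4 CPM in the KO libraries (0.96 ± 0.09) and fell in the Hif1a Ahr line (-0.40). Sec61a2, a subunit of the translocon, fell in the Hif1a line (-0.77) and was not called in the Hif1a Ahr line (0.08).

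Other differences came from the second line. Prr5, a subunit of mTOR complex 2, was not called in the Hif1a line (0.07) but fell in the Hif1a Ahr line (-1.32) and the Ahr line (-1.34). Nrp1, a co-receptor for semaphorins, was not called in the Hif1a line (-0.41) and rose in both others (2.26 and 1.55). Foxred2 (-0.07) behaved alike, with rises of 0.89 and 0.57.

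Against the Ahr line 5418 genes (32.4%) differed, 2784 more positive and 2634 more negative in the Hif1a line (3918 and 1906 by library totals alone). Sla, the adaptor SLAP that lowers antigen receptor levels, stood at 15.7, 18.9 and 17 CPM in the flox libraries and 78.4, 81 and 69.9 CPM in the KO libraries (2.15 ± 0.15) and fell in the Ahr line from 19.6 ± 2.76 to 5.9 ± 0.193 CPM (SD, n = 3, -1.73). Prss16, a thymic serine protease, stood at 13.6, 15.9 and 16.4 CPM in the flox libraries and 42, 39.6 and 36.9 CPM in the KO libraries (1.37 ± 0.13) and fell in the Ahr line (-1.11). Apln and Sdc4 had the reverse pattern, falling in the Hif1a line and rising in the Ahr line (0.60 and 0.48).

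One group of falls had a position in common. On chromosome 9, the run of neighbours from Ppib to Bnip2 held 22 tested genes. In the Hif1a line 18 of them were called lower and 1 higher, with a median log2 change of -0.92. The ends of the run were set after calls along the chromosomes were seen, so its counts are a description and not a test. The same run had 20 called lower in the Hif1a Ahr line (median -1.12) and 20 called lower in the Ahr line (median -0.98), where Hif1a was intact. Over all genes 17.8%, 16.5% and 4.78% were called lower in the Hif1a, Hif1a Ahr and Ahr lines. Lower levels in this run went with Ncr1 iCre in all 3 lines, and within the Hif1a line alone Cre and Hif1a loss cannot be told apart. Map2k1 lies 27 tested genes away from it and was not called in the Ahr line (0.11).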

How the data were processed

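RNA of 18 NK cell libraries was sequenced strand-specifically on DNBSEQ. The authors deposited estimated counts per gene, not normalized. Trim Galore 0.6.4, kallisto 0.4.6, edgeR 3.17 and GRCm39 are named in the submitters' processing notes. Of 56953 gene IDs 52029 matched a symbol, and gene order and symbols came from GENCODE M21. Estimated counts were rounded to whole numbers.

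All 18 libraries were fitted in edgeR 4.0.16 (R 4.3.3) with TMM scaling, filterByExpr by group, 1 mean per group and the robust quasi-likelihood test, with Benjamini-Hochberg adjustment over 16743 genes and calls at an adjusted p under 0.05. The lines share 1 estimate of spread, with 12 residual degrees of freedom and a common biological coefficient of variation of 0.117. TMM factors ran from 0.941 to 1.06. A ± after a log2 change is a standard error, the change divided by the root of F. Counts of replicate libraries differed by more than sampling noise, with a chi-square per degree of freedom from 16.3 to 40.4. The fit was tested on simulated counts.

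Alternatives were other size factors, library totals alone, no filter, DESeq2 1.42.0, the Hif1a line alone, the replicate block and each library left out. Samples with the same replicate number deviated together in the Hif1a line (correlations 0.31, 0.53 and 0.3 over 9986 genes), so the number was taken as a pairing found in the data. Members and lists were chosen with earlier results of these data known. Named genes were the 12 largest called changes in each direction with a mean of at least 5 CPM and no overlap, called changes of at least 2-fold with a mean of at least 300 CPM, up to 6 called members a list by adjusted p, and the 4 smallest adjusted p in each direction of a difference between lines. Genes not called are given with values. Some genes that these rules name are not reported here. Adgrg1, Cd55, Egr2, Eomes, Fcer1g, Gzmg, H2-D1, H2-K1, Hmgcs1, Id3, Ikzf2, Kit, Nr4a1 and Srebf2 fall outside these rules and were chosen after their values were seen.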

Additional observations from a re-analysis of the deposited data

Results flagged for a closer look

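Results are listed here because the change in the Hif1a line differed from that in another line by a test of the difference itself, in edgeR over all genes. Against the Hif1a Ahr line 1615 genes differed. The difference in log2 change was positive for Cd96 (1.24), Prr5 (1.38), Rcbtb2 (1.17) and Srr (1.36). It was negative for B4galt5 (-0.89), Foxred2 (-0.96), Nrp1 (-2.68) and Sec61a2 (-0.85). B4galt5, a galactosyltransferase, had a log2 change of -0.29 in the Hif1a line and of 0.60 in the Hif1a Ahr line.

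Against the Ahr line 5418 genes differed. The difference was positive for Cd96 (1.87), Prss16 (2.48), Sla (3.89) and Ttc39c (3.92), and negative for Apln (-4.84), Galk1 (-1.88), Plcxd1 (-4.23) and Sdc4 (-3.08). These 16 differences had the lowest adjusted p of each direction among genes averaging 5 CPM or more, and each kept its call in every alternative run.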

How the results depend on the processing

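The main counts of 2948 higher and 2972 lower genes stayed within 1.5 times under every alternative: 2976 and 2942 with DESeq2-style size factors in edgeR, 4117 and 2156 by library totals alone, 2599 and 2569 without the filter on low counts, 3043 and 2968 with DESeq2, 3060 and 2961 in a fit of the Hif1a line alone, and 3394 and 3406 with the replicate number as a block. Leaving out 1 library at a time gave 2380 to 2712 higher and 2405 to 2726 lower. Between 78.8% and 99.3% of the main calls were shared with each alternative, and 0 changed direction. Counts of differences from the Hif1a Ahr line, 857 and 758, moved further: with the replicate block they were 1556 and 1602, and leaving out 1 library gave 412 to 825 and 339 to 845. Of 208 genes with a tested change that the text gives, 202 kept their side of the threshold in every alternative, 3 lost their call when 1 library was left out, 2 gained one with the replicate block, B4galt5 lost its call by library totals alone (-0.19), and 0 changed direction. The pairing changed no other call among them. The 2 genes that gained a call, Ifng and Il2ra, were also called in the fit of the Hif1a line alone, without the block. Of 21 called differences between lines that were followed through the alternatives, 1 lost its call, that of Prf1. The difference of Gzmd, which was not called, was not among them. Gene-level counts carry no information on exons, and close gene copies limit what can be said of single members.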

Other observations

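Replicate 2 of the Hif1a line stood apart in the same direction in both genotypes for several of the genes that changed most. It had the lowest level of its group for Prf1 (2748 CPM with flox and 414 CPM with KO), Gzmd (4890 and 626), Spp1 (6056 and 791) and Tmem119 (231 and 5.54). It had the highest level of its group for Xcl1 (156 and 734), Tcf7 (27.2 and 125) and Il12rb2 (422 and 941).

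In the other lines the same genes also spread widely among libraries of one genotype. Among Hif1a Ahr flox libraries Prf1 stood at 2241, 3817 and 2042 CPM and Xcl1 at 146, 65.2 and 420 CPM. In the library with the highest Prf1 of that group Xcl1 was lowest. In the Ahr line Prf1 stood at 2213, 3720 and 2643 CPM with flox and at 4546, 5663 and 4423 CPM with KO. The cause of the spread between replicates was not tested.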
